A study of Mus musculus with 24 samples.

Results

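The comparison concerned basal cells of the mouse mammary gland that lack the Id4 gene, set against wild-type basal cells and described across all genes. Its members were the 8 basal libraries of a series of 24, chosen by their labelled population and genotype: 4 from Id4 knockout (KO) mice and 4 from wild-type (WT) mice. The donors of both genotypes were females of the inbred FVB/N strain, 10 to 12 weeks old and in estrus, and each library came from glands pooled over 4 to 8 mice. Live cells without lineage markers were flow sorted, and the basal fraction was taken by its surface CD24, CD29 and CD61; the other 16 libraries hold mature luminal (ML) cells and luminal progenitors (LP) of both genotypes. The mice carry a previously made Id4 knockout line, so cells outside the epithelium also come from KO animals, and the sources used here do not say which exon of Id4 it removes. Between 0.5 and 2 ng of RNA per library was amplified before sequencing. The labels call the libraries biological replicates, and p-values measure the spread between these libraries. In sorted bulk cells, fewer cells of a type and less RNA per cell cannot be told apart.

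ID4 belongs to the inhibitor of DNA binding family, helix-loop-helix proteins that pair with E proteins but have no DNA-binding region. E proteins (TCF3, TCF4 and TCF12) are transcription factors that bind the E-box motif, and a pair with an ID protein cannot bind it. Basal cells line the outside of mammary ducts; most are contractile myoepithelium, and the compartment also holds cells that can regenerate the gland when transplanted. In this epithelium ID4 is made by basal cells and is known as a regulator of mammary stem cells and of duct growth.

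The basal label held in all 8 libraries. Summed over Krt5, Krt14 (both basal keratins) and Acta2 (smooth muscle actin), the level ran from 5041 to 7558 CPM in KO basal libraries and from 3535 to 5941 CPM in WT basal libraries, against means of 17.4 and 35.8 CPM in KO and WT luminal progenitors. CPM are counts scaled to a common library size with TMM, over all 24 libraries for sums of markers and over the 8 basal libraries elsewhere. KO libraries held 3098425 to 6276498 counts and WT libraries 3180869 to 6524300, so that 3 counts correspond to 0.46 to 0.968 CPM over the 8 libraries. A pair of libraries stood apart. WT replicate 2 held the highest luminal signal, with 2946 CPM over 16 luminal progenitor markers and 23679 CPM over 13 milk genes, while the other WT basal libraries held 811 to 1067 CPM and 319 to 1059 CPM of the same lists. KO replicate 3 was the shallowest library, with 11837 genes detected against 13637 to 16493 in the other KO libraries, and it held the most endothelial marker RNA (313 CPM over 13 genes, against 84.6 to 110 CPM in the other KO libraries). Below, 3 values from the reduced fits stand in this order: WT replicate 2 left out, KO replicate 3 left out, both left out. Counts come from amplified cDNA without molecular identifiers, so limits from counts cover counting error only.

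**Figure D1:**
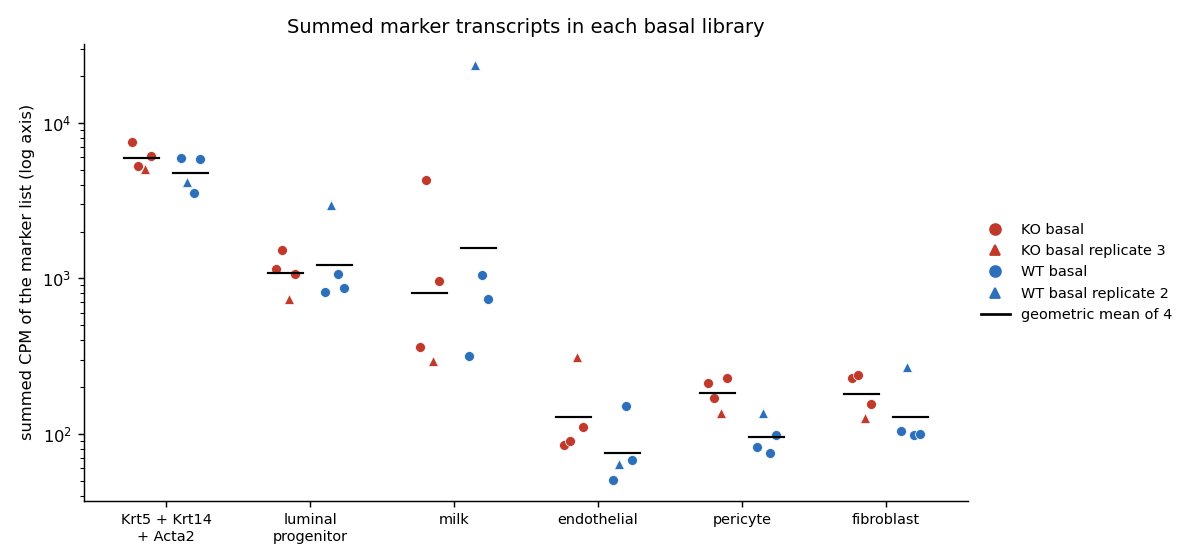
Summed CPM of 6 marker lists (log axis) in each KO and WT basal library, scaled over all 24 libraries; triangles mark KO replicate 3 and WT replicate 2, and black lines are geometric means of 4. WT replicate 2 sits at 23679 CPM on the milk list, above every other basal library, and the pericyte list runs from 137 to 227 CPM in KO and from 75.4 to 136 CPM in WT.

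Id4 (ENSMUSG00000021379, GENCODE on GRCm38 chromosome 13, 48261228 to 48266026, plus strand) was lower in every KO library. It had 64, 6, 34 and 4 counts in KO replicates 1 to 4, or 9.88, 1.16, 11.9 and 0.952 CPM. In WT replicates 1 to 4 it had 595, 67, 99 and 239 counts, or 83.9, 14.3, 29.9 and 38.0 CPM. The groups did not overlap, yet KO replicates 1 and 3 had Id4 reads at a level close to that of WT replicate 2, the library with the luminal RNA. The mean difference of log2(CPM + 0.5) was -3.05, with a two-sided exact permutation p of 0.0286, the smallest that 70 assignments allow. Without WT replicate 2 it was -3.46 (exact permutation p = 0.0571), without KO replicate 3 it was -3.57 (exact permutation p = 0.0286), and without both it was -3.98 (exact permutation p = 0.1). With 35 assignments the smallest p is 0.0286, and with 20 it is 0.1, so the last of these designs cannot reach 0.05.

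No gene passed edgeR's quasi-likelihood test at an adjusted p of 0.05 among the 11307 genes tested, nor with WT replicate 2 left out (11838 genes), with KO replicate 3 left out (12161) or with both left out (11790). At an unadjusted p under 0.05, 212 genes were higher in KO (1.87% of those tested) and 171 were lower (1.51%), 3.39% together. The KO and WT libraries did not overlap for 124 genes that were higher in KO (1.1%) and 179 that were lower (1.58%). Without both libraries the counts at an unadjusted p under 0.05 were 376 (3.19%) and 227 (1.93%). DESeq2 called 7 of 10436 genes with an adjusted p, all higher in KO (0.0671%): Id3, Slc14a1, Zeb2, Camk1d, Ano10, Csgalnact1 and Gm29358. Limma-voom with sample weights called 1 of 11307 genes (0.00884%), Id3. The genes below are therefore named by their rank, not by an edgeR call, and the edgeR adjusted p was 0.998 for each of them in the fit of all 8 libraries unless another value is given.

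Id3, Id2 and the E protein gene Tcf4 stood higher in every KO library than in any WT library, and Id1 overlapped. Id3 had the smallest p of all genes, while Tcf12 and Tcf3 overlapped between the groups. The upstream sequences of Id3 and Id2 are shown here because they are the leading other members of the family of the protein that was removed. That of Igfbp3 is shown because it was the leading gene in the other direction. Each is the 250 bases before the annotated start (RefSeq, GRCm38.p6), read 5′ to 3′ on the gene's strand, with capitals marking an E-box, CANNTG, a motif that reads the same on both strands. The windows are chr4:136143572-136143821 on the plus strand for Id3, chr12:25096093-25096342 on the minus strand for Id2 and chr11:7213924-7214173 on the minus strand for Igfbp3.
Id3 promoter: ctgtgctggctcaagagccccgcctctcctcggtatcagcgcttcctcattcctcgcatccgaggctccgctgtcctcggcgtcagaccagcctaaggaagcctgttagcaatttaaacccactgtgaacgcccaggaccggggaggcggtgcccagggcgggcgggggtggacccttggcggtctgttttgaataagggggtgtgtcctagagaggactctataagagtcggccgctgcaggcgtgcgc
Id2 promoter: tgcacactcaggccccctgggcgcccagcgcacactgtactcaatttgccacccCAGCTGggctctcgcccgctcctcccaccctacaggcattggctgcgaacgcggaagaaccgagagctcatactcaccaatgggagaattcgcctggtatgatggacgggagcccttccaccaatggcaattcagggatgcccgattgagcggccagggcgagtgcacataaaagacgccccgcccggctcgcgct
Igfbp3 promoter: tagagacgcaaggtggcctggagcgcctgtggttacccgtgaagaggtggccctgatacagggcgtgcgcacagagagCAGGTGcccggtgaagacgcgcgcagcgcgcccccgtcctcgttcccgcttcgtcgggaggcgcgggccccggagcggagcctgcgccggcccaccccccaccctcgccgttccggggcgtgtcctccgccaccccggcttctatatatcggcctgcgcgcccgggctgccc
The Id3 window held no CANNTG, the Id2 window held 1 (CAGCTG) and the Igfbp3 window held 1 (CAGGTG). Of all 32851 promoter windows of this length, 66.2% held at least 1. Among the 12 leading genes in each direction (Id4 left aside), described below, 9 of 17 windows of genes higher in KO (52.9%, from 9 matched genes) and 11 of 16 windows of genes lower in KO (68.8%, from 10 matched genes) held one. The letters CACCTG or their complement CAGGTG stood in 4 of 17 windows (23.5%), in 3 of 16 (18.8%) and in 17.2% of all windows.

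Id3 (ENSMUSG00000007872, chromosome 4) had 100.3, 53.1, 93.8 and 106 CPM in KO replicates 1 to 4, against 17.3, 11.9, 12.7 and 14.2 CPM in WT. The lowest KO library, replicate 2, was above the highest WT library, and neither group rested on 1 library. The log2 fold change was 2.65 (SE 0.42, edgeR adjusted p = 0.165). It was 2.58, 2.63 and 2.55 in the reduced fits, and between 2.55 and 2.85 over all alternatives, with DESeq2 giving an adjusted p of 9.48e-07 and voom 0.0315. Id2 had 31.5, 29.9, 52.4 and 35.7 CPM in KO and 16.8, 9.81, 11.5 and 14.5 CPM in WT, also without overlap (log2 fold change 1.5, SE 0.54, and 1.38, 1.30 and 1.18 in the reduced fits). Id1 had 20.5, 2.33, 2.46 and 20.9 CPM in KO and 4.23, 0, 1.51 and 4.46 CPM in WT: KO replicates 1 and 4 were high, replicates 2 and 3 lay within the WT range, and the log2 fold change of 2.16 had an SE of 1.25.

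Among the E proteins, Tcf4 (ENSMUSG00000053477) had 179.8, 237, 256 and 176 CPM in KO and 112, 84.0, 79.1 and 108 CPM in WT. All 4 KO libraries stood above all 4 WT libraries, and the log2 fold change was 1.15 (SE 0.29), or 1.09, 1.05 and 0.99 in the reduced fits. Tcf12 had 196, 114, 64.7 and 129.3 CPM in KO and 126, 67.8, 111 and 149.6 CPM in WT, overlapping throughout (log2 fold change 0.15, SE 0.37, and -0.03, 0.37 and 0.18 in the reduced fits). Tcf3 had 17.3, 16.5, 19.0 and 16.9 CPM in KO and 22.0, 14.9, 16.9 and 23.4 CPM in WT (log2 fold change -0.15, SE 0.60, and -0.26, -0.19 and -0.30 in the reduced fits).

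The factors of the epithelial-mesenchymal transition differed among themselves. Zeb2, a zinc finger repressor of E-cadherin, had 35.6, 19.6, 243 and 45.0 CPM in KO and 6.49, 5.33, 5.74 and 13.2 CPM in WT. KO replicate 3 was far above the rest, but the other 3 KO libraries also stood above every WT library, and the log2 fold change of 3.47 (SE 0.74) became 2.12 without KO replicate 3 and 1.96 (SE 0.60) without both. DESeq2 gave Zeb2 an adjusted p of 0.000936 with all 8 libraries. Its relative Zeb1 had 8.02, 16.5, 116 and 3.09 CPM in KO and 1.27, 1.71, 8.15 and 7.32 CPM in WT. Here the difference rested on KO replicate 3: the log2 fold change of 2.95 (SE 1.06) became 0.98 without it and 0.72 (SE 0.99) without both. Snai2, another E-cadherin repressor and a basal transcription factor, had 114, 54.5, 27.8 and 55.0 CPM in KO and 26.1, 39.7, 23.5 and 75.3 CPM in WT (log2 fold change 0.61, SE 0.51, and 0.59, 0.86 and 0.83 in the reduced fits). Prrx1 had 7.56, 24.05, 3.87 and 3.57 CPM in KO and 12.1, 16.8, 6.34 and 24.4 CPM in WT (log2 fold change -0.61, SE 0.86, and -0.55, -0.35 and -0.29 in the reduced fits). Cdh1, E-cadherin itself, had 278, 394, 453 and 373 CPM in KO and 158, 209, 394 and 247 CPM in WT, a log2 fold change of 0.57 (SE 0.31) with overlap at WT replicate 3. KO replicate 3 also had the highest level of the endothelial gene Cdh5, 145 CPM against 1.43 to 14.7 CPM in the other KO libraries; the part of endothelial RNA in its Zeb1 and Zeb2 levels was not tested.

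**Figure D2:**
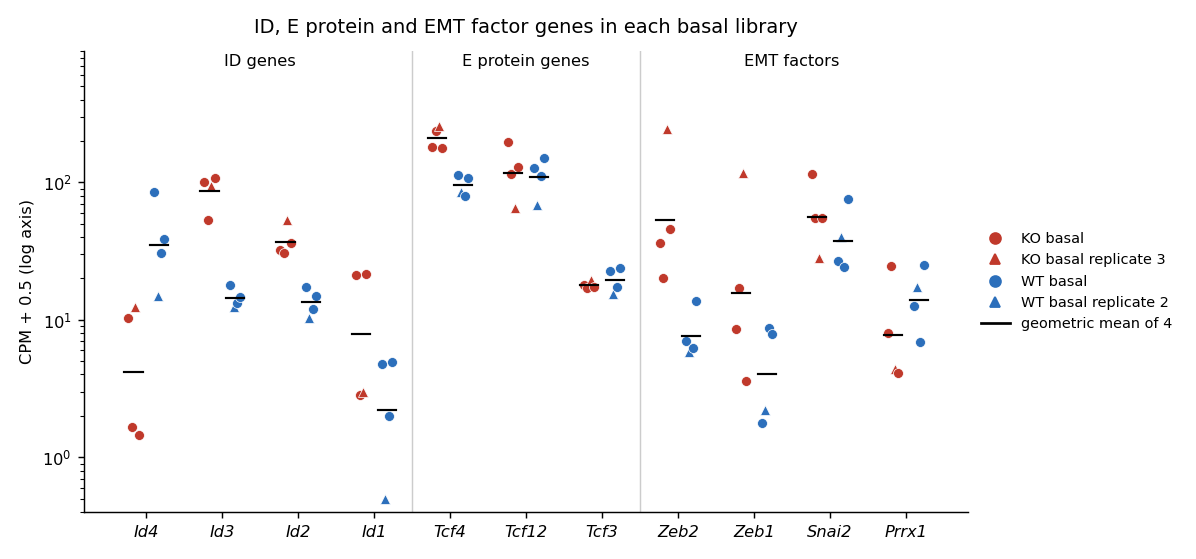
CPM + 0.5 (log axis) of ID, E protein and EMT factor genes in each KO and WT basal library; triangles mark KO replicate 3 and WT replicate 2, and black lines are geometric means of 4. Id3, Id2, Tcf4 and Zeb2 have every KO library above every WT library, Id4 has every KO library below, and Zeb1 has 1 KO library, at 116 CPM, far above the others.

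The 12 genes with the smallest edgeR p among those higher in KO were Id3, Camk1d, Zeb2, Slc14a1, Mcam, Tcf4, Lgals9, Sema5a, mt-Co3, Zbed3, Ano10 and Rps6ka1. They were chosen on these values, so that all 12 having no overlap between the groups (1.1% of all genes tested) is a description. Camk1d, a calcium and calmodulin dependent kinase, had 90.1, 90.2, 139 and 66.2 CPM in KO and 28.1, 17.3, 18.7 and 33.9 CPM in WT, with the lowest KO library well above the highest WT library. Its log2 fold change was 1.97 (SE 0.41), and 1.83, 1.75 and 1.60 in the reduced fits (DESeq2 adjusted p = 0.00539). Slc14a1, a urea transporter, had 69.3, 100.1, 78.0 and 51.9 CPM in KO and 9.45, 0, 7.55 and 7.16 CPM in WT. No KO library came near the WT libraries, and the log2 fold change of 3.62 (SE 0.80) was 3.19 (SE 0.44) without both libraries, where it had the smallest edgeR adjusted p of that fit, 0.0823.

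Mcam, an adhesion molecule of smooth muscle, pericytes and endothelium, had 115, 68.3, 95.9 and 196 CPM in KO and 52.3, 21.5, 35.3 and 36.1 CPM in WT. Its groups did not overlap and its log2 fold change was 1.71 (SE 0.42), or 1.61 without both libraries. Over 8 pericyte markers that include Mcam, the summed level ran from 137 to 227 CPM in KO and from 75.4 to 136 CPM in WT, with Mcam the most abundant member in every library but WT replicate 2. Among the other pericyte markers Kcnj8 was at 0 in all 8 libraries, and Rgs5 had 36.9, 27.5, 8.43 and 12.4 CPM in KO and 12.0, 36.9, 14.8 and 14.6 CPM in WT. Pdgfrb, scaled over all 24 libraries, had 16.8, 48.1, 24.1 and 4.94 CPM in KO and 2.75, 8.45, 1.51 and 16.6 CPM in WT. Of 5 pericyte markers tested, 4 were above 0 with a median of 0.13, or 0.62, 0.41 and 0.89 in the reduced fits. All 5 were above 0 without WT replicate 2 (53.8% of all genes) and without both libraries (51.9%). The part of pericyte RNA in the Mcam difference was not tested. Lgals9, a secreted lectin (galectin-9), had 76.7, 73.1, 88.9 and 88.1 CPM in KO and 27.4, 27.5, 32.3 and 36.1 CPM in WT (log2 fold change 1.41, SE 0.37, and 1.35, 1.37 and 1.31 in the reduced fits). Sema5a, a guidance molecule of the semaphorin family, had 442, 378, 659 and 578 CPM in KO and 319.8, 268, 199 and 179.9 CPM in WT (log2 fold change 1.09, SE 0.29, and 1.14, 0.96 and 1.00 in the reduced fits).

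The mitochondrial gene mt-Co3, a subunit of cytochrome c oxidase, had 433, 648, 391 and 668 CPM in KO and 322, 240.3, 171 and 267 CPM in WT, without overlap (log2 fold change 1.10, SE 0.29, and 1.08, 1.23 and 1.2 in the reduced fits). It was the only one of 13 protein-coding genes of the mitochondrial genome at an unadjusted edgeR p under 0.05, and the median log2 fold change of the 13 was 0.08, or 0.35 without both libraries, where all 13 were above 0 against 51.9% of all genes. Zbed3, a zinc finger protein, had 20.2, 50.04, 84.0 and 30.5 CPM in KO and 9.02, 7.89, 11.8 and 11.5 CPM in WT; KO replicate 3 was highest, and the log2 fold change of 2.20 (SE 0.58) was 1.74 without it. Rps6ka1, a kinase downstream of ERK, had 34.1, 59.0, 118 and 108 CPM in KO and 24.5, 23.03, 21.7 and 28.8 CPM in WT (log2 fold change 1.70, SE 0.46, and 1.67, 1.46 and 1.41 in the reduced fits). Ano10, a membrane protein of the anoctamin family, had 3.24, 14.7, 87.1 and 31.7 CPM in KO and 2.96, 0, 2.11 and 2.23 CPM in WT, with KO replicate 1 barely above WT replicate 1 (log2 fold change 4.19, SE 1.12, and 3.79, 3.15 and 2.75 in the reduced fits). The remaining DESeq2 calls were Csgalnact1, an enzyme of chondroitin sulfate synthesis, with 17.9, 37.8, 20.03 and 10.2 CPM in KO and 0, 0.426, 3.02 and 1.59 CPM in WT (DESeq2 adjusted p = 0.0227), and the predicted gene Gm29358, whose groups overlapped. The Csgalnact1 groups did not overlap, and its log2 fold change was 4.12 (SE 1.15) with all libraries and 3.89 without both. It passed the filter on low counts mainly through KO libraries, so its lack of overlap and its fold change are a description.

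Among genes lower in KO, leaving aside Id4, which would rank among them, the 12 smallest edgeR p values belonged to Igfbp3, Gpx3, Has2, Mrps26, Chil1, Vipr1, Ero1lb, Pgap2, Cd160, Rbck1, Pde7b and Eif3b, and 10 of the 12 had no overlap between the groups (1.58% of all genes tested); Vipr1 and Pgap2 overlapped. Igfbp3 (ENSMUSG00000020427), a secreted binder of insulin-like growth factors, had 119.6, 94.6, 40.8 and 99.5 CPM in KO and 266, 179.7, 227 and 285 CPM in WT. Every KO library was below every WT library, with KO replicate 3 the lowest. The log2 fold change was -1.43 (SE 0.34), and -1.55, -1.19 and -1.31 in the reduced fits. Has2, the enzyme that makes hyaluronan, had 27.5, 27.3, 15.1 and 18.3 CPM in KO and 64.6, 48.2, 84.2 and 65.6 CPM in WT, without overlap. Its log2 fold change was -1.57 (SE 0.44), and -1.70, -1.43 and -1.55 in the same 3 fits. Gpx3, a secreted glutathione peroxidase, had 17.0, 32.0, 15.1 and 32.8 CPM in KO and 109.7, 173, 72.4 and 35.3 CPM in WT, where replicate 4 lay close to the KO libraries (log2 fold change -2.01, SE 0.50, and -1.58, -1.82 and -1.41 in the reduced fits). On the scaling of 24 libraries its WT means were 95.4 CPM in basal cells, 89.8 in LP and 1903 in ML. In a fit of all 24 libraries its log2 fold change in ML was -1.63. The part of luminal RNA in the Gpx3 difference was not tested.

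Chil1, a secreted chitinase-like glycoprotein, had 100.5, 65.9, 95.9 and 25.0 CPM in KO and 198, 144, 273 and 149 CPM in WT. The groups did not overlap, and the log2 fold change was -1.41 (SE 0.41) with all libraries and -1.70 without both. Eif3b, a subunit of a translation initiation factor, had a narrow range in both groups, 27.6, 23.1, 29.5 and 28.8 CPM in KO and 65.7, 71.6, 59.5 and 59.7 CPM in WT (log2 fold change -1.23, SE 0.40, and -1.18, -1.26 and -1.22 in the reduced fits). Rbck1, a subunit of a linear ubiquitin ligase, had 20.7, 16.5, 9.49 and 2.62 CPM in KO and 35.8, 65.7, 70.3 and 28.3 CPM in WT (log2 fold change -2.01, SE 0.64, and -1.86, -1.90 and -1.75 in the reduced fits). For several others the size rested on WT replicate 2. Ero1lb, an oxidase of the endoplasmic reticulum, had 4.63, 11.8, 6.32 and 8.57 CPM in KO and 13.4, 139, 23.2 and 15.4 CPM in WT, so that its log2 fold change of -2.61 was -1.15 without that library. Without WT replicate 2 the log2 fold change of Vipr1, a receptor for vasoactive intestinal peptide, was -2.43 in place of -4.35, that of Pgap2 was -2.15 in place of -3.21, and that of Pde7b, a cAMP phosphodiesterase, was -1.78 in place of -2.47. Mrps26 and Cd160 stood at 0 to 1.85 CPM in KO, too few reads for a firm size, against 2.71 to 36.5 CPM and 4.09 to 24.9 CPM in WT. Mrps26 passed the filter on low counts only through WT libraries.

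**Figure D3:**
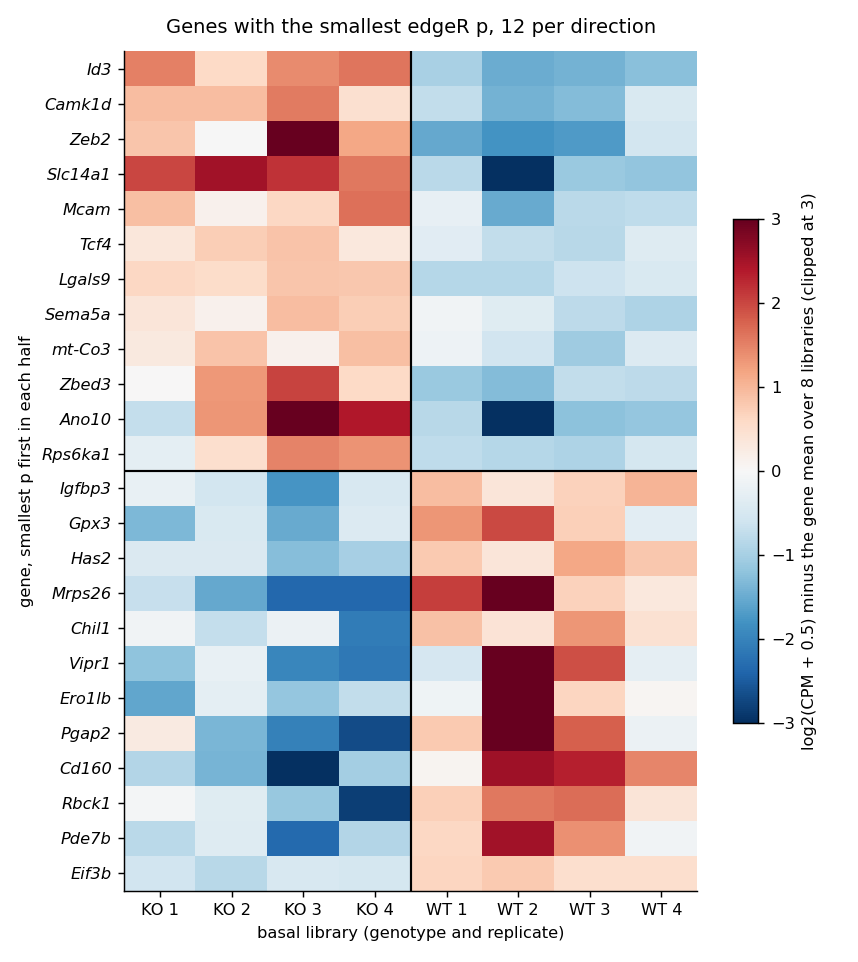
Log2(CPM + 0.5) minus the gene's mean over 8 libraries (colour, with the extremes clipped) for the 12 genes with the smallest edgeR p in each direction, Id4 left aside, KO libraries left and WT libraries right. Id3, Camk1d, Slc14a1, Lgals9, Igfbp3, Has2 and Eif3b separate all 4 KO from all 4 WT libraries, while Ero1lb, Vipr1 and Pgap2 are darkest in WT replicate 2 and Zeb2 and Ano10 in KO replicate 3.

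Leaving out WT replicate 2 and KO replicate 3 brought other genes to the front. The genes of this paragraph were chosen in that fit, so larger fold changes there are a description. Colgalt2, a galactosyltransferase that modifies collagen, had 134, 167, 68.5 and 191 CPM in KO and 66.4, 96.8, 26.0 and 38.0 CPM in WT, and its log2 fold change of 1.30 with all libraries was 1.91 (SE 0.36) without both. Etv1, an ETS family transcription factor, had 82.7, 74.7, 12.6 and 137 CPM in KO and 24.7, 110.0, 9.05 and 27.9 CPM in WT. WT replicate 2 and KO replicate 3 ran against the other 6 libraries, and the log2 fold change of 0.84 was 2.24 (SE 0.46) without them. Bcan, the proteoglycan brevican, was at 0 in all WT libraries and had 8.95, 45.0, 0.351 and 2.14 CPM in KO, so it passed the filter on low counts only through KO libraries. Kcnma1, a calcium-gated potassium channel, had 2.47, 0.194, 8.08 and 0 CPM in KO and 26.1, 15.8, 30.5 and 17.4 CPM in WT. It separated the groups in all 8 libraries (log2 fold change -3.09, SE 1.17, and -3.23, -4.55 and -4.69 in the reduced fits). Lrrfip1 had 45.8, 52.4, 46.4 and 33.6 CPM in KO and 147, 26.0, 96.3 and 106 CPM in WT (log2 fold change -1.08, and -1.41 without both). For Nol4l, Clca3a1 and Ftsj3 the log2 fold changes were 0.31, -0.57 and -1.05 with all libraries and 1.70, -1.51 and -1.53 without both; the lowest edgeR adjusted p among the genes of this paragraph was 0.367.

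Contractile genes, which give myoepithelium its smooth muscle character, leaned towards KO by small amounts. Of 20 tested (21 listed), 19 had a log2 fold change above 0, against 50.6% of all genes, and their median was 0.29, against 0.01 for all genes. The median was 0.29, 0.29 and 0.21 in the reduced fits, and with both left out 16 of 21 were above 0. Only Cnn1 was at an unadjusted edgeR p under 0.05, 1 of 20 against 1.87% of all genes. Cnn1, calponin, had 559, 554, 533 and 598 CPM in KO and 512, 338, 232 and 395 CPM in WT, which did not overlap (log2 fold change 0.60, SE 0.27, and 0.56, 0.64 and 0.59 in the reduced fits). Acta2 had 5519, 4222, 3635 and 4528 CPM in KO and 4159, 3689, 2435 and 4393 CPM in WT, with wide overlap (log2 fold change 0.29, SE 0.25, and 0.29, 0.39 and 0.37 in the reduced fits). Lmod1, an actin nucleator of smooth muscle, had 68.8, 31.8, 93.5 and 196 CPM in KO and 72.3, 31.6, 50.7 and 33.9 CPM in WT; KO replicates 3 and 4 stood above the WT range and replicates 1 and 2 within it (log2 fold change 1.05, SE 0.50, and 0.90, 1.08 and 0.92 in the reduced fits). Myocd, the coactivator that drives smooth muscle genes, had 15.3, 10.3, 0 and 9.52 CPM in KO and 0, 0, 0.604 and 1.59 CPM in WT. It was too low in all 8 libraries together to be tested. In the reduced fits it is the member that brings the list to 21. It passed the filter on low counts there only through KO replicates 1, 2 and 4, so its fold change is no support for the lean of the list.

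Of 17 basal identity genes tested, 13 were above 0 and the median was 0.31, or 0.07, 0.27 and 0.18 in the reduced fits. With WT replicate 2 left out, the median of 0.07 was close to the 0.06 of all genes. Krt5 had 902, 682, 1185 and 1025 CPM in KO and 827, 483, 528 and 545 CPM in WT, with KO replicate 2 inside the WT range (log2 fold change 0.67, SE 0.27, and 0.58, 0.56 and 0.45 in the reduced fits). Krt14 had 819, 503, 627 and 679.6 CPM in KO and 792, 374, 573 and 681 CPM in WT, a log2 fold change of 0.12 (SE 0.28) that was -0.06 without WT replicate 2. Trp63, the master regulator of basal epithelium, had 593, 672, 399 and 428 CPM in KO and 561, 480.2, 239 and 409 CPM in WT (log2 fold change 0.31, SE 0.30, and 0.38, 0.43 and 0.49 in the reduced fits). WT replicate 2, which carries the luminal RNA, had the lowest Krt14 level of the 8 libraries, and the part of that RNA in the basal medians was not tested.

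Proliferation genes had a higher median than all genes, and the gap was larger without the doubtful libraries. For Mki67 and Top2a, WT replicate 2 was the highest WT library and KO replicate 3 the lowest KO library. Leaving them out raises such fold changes by construction, so the larger gap adds no support. Of 17 tested (22 listed), 12 were above 0 with a median log2 fold change of 0.52; without both libraries all 18 tested were above 0 with a median of 0.92, against 51.9% and 0.03 over all genes. At an unadjusted edgeR p under 0.05 there were 1 of 17, and 4 of 18 without both, against 1.87% and 3.19% of all genes. Mki67, a marker of cycling cells, had 175, 309.9, 79.8 and 146 CPM in KO and 80.2, 198, 51.9 and 91.5 CPM in WT. Replicates 1 and 2 ranked highest in KO and replicates 2 and 4 in WT. The groups overlapped, while at every replicate number the KO library stood above the WT library. The log2 fold change of 0.75 (SE 0.45) was 1.25, 1.02 and 1.49 (SE 0.35) in the reduced fits. Birc5, survivin, had 5.55, 3.103, 22.5 and 7.62 CPM in KO and 0, 2.13, 0 and 0.478 CPM in WT, without overlap but with few reads in WT. It is the 1 of 17 above, and it passed the filter on low counts only through KO libraries. Its fold change and that count are therefore no support for the higher median of the list. Top2a, a topoisomerase of dividing cells, had 56.6, 95.2, 17.9 and 50.7 CPM in KO and 41.2, 56.7, 23.8 and 41.9 CPM in WT (log2 fold change 0.43, SE 0.50, and 0.63, 0.74 and 0.92 in the reduced fits). KO replicate 3 was at 0 for Ccna2, Rrm2 and Tyms, which the other 7 libraries all showed; it is also the library with the fewest genes detected. Pcna ran the other way in that library, at 297 CPM, and its log2 fold change of 0.61 was 0.13 without both.

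**Figure D4:**
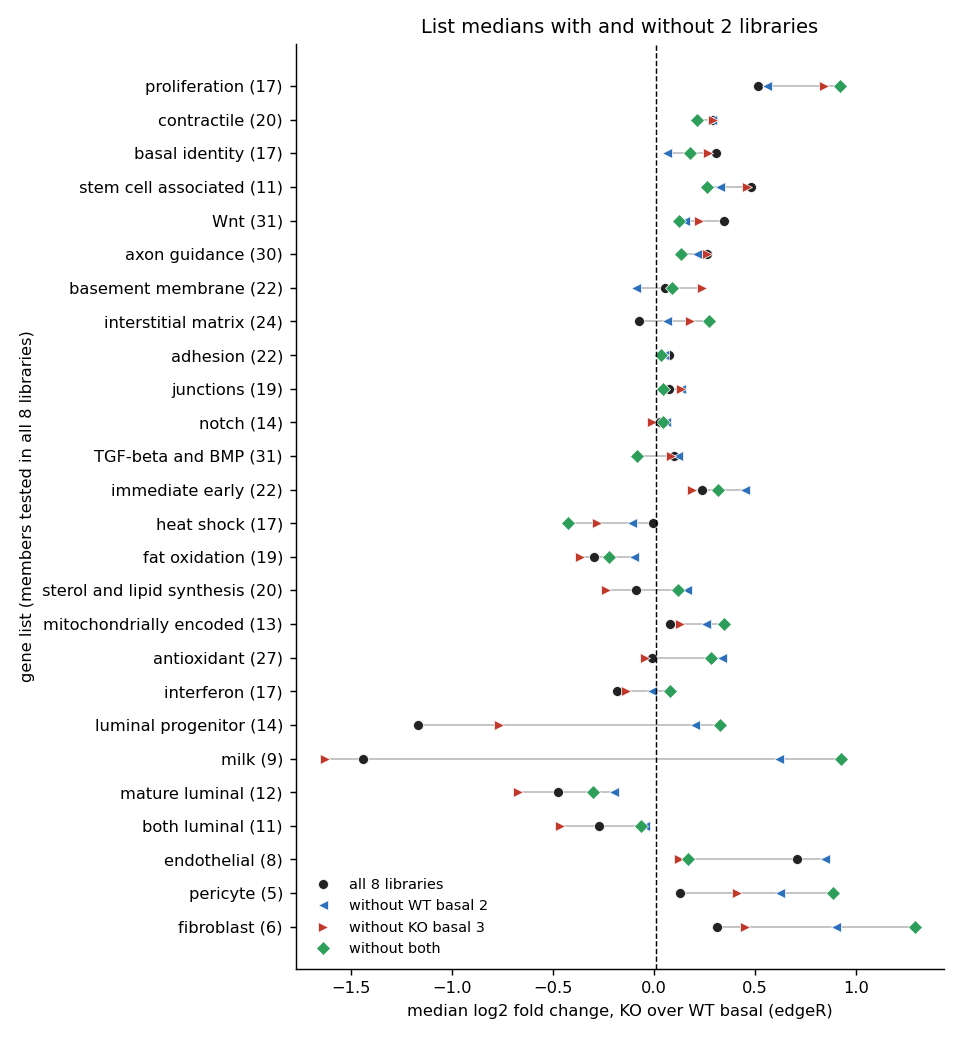
Median log2 fold change, KO over WT basal, of 26 gene lists in 4 edgeR fits (all 8 libraries, and the 3 that leave out WT replicate 2, KO replicate 3 or both); the dashed line is the median of all genes with all 8 libraries. The contractile list stays between 0.21 and 0.29 and the proliferation list between 0.52 and 0.92, while the luminal progenitor and milk lists are below 0 with WT replicate 2 and above 0 without it.

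Genes of the matrix lay in both directions. Of 24 interstitial matrix genes tested, 11 were above 0 and the median was -0.07, or 0.27 without both libraries; at an unadjusted edgeR p under 0.05, 2 were higher and 1 was lower, and without both libraries 6 of 26 were higher (3.19% of all genes) and 2 were lower (1.93%). Tnc, the glycoprotein tenascin C, had 74.4, 134, 44.3 and 81.9 CPM in KO and 45.1, 32.0, 17.5 and 29.9 CPM in WT, overlapping only between KO replicate 3 and WT replicate 1 (log2 fold change 1.42, SE 0.45, and 1.44, 1.64 and 1.64 in the reduced fits). Fbln1, fibulin 1, had 47.1, 26.0, 10.5 and 43.1 CPM in KO and 14.5, 7.46, 3.62 and 8.12 CPM in WT (log2 fold change 1.90, SE 0.70, and 1.84, 2.20 and 2.13 in the reduced fits), and again KO replicate 3 was its lowest KO library. Fn1, fibronectin, had 54.8, 287, 7.38 and 33.6 CPM in KO and 25.5, 88.5, 10.6 and 17.4 CPM in WT. In both groups replicate 2 was highest, and the log2 fold change of 1.43 (SE 0.85) was 2.80 (SE 0.69) without both libraries. KO replicate 3 was the lowest KO library, so leaving out both raises the Fn1 value by construction. The larger value adds no support. Col12a1, a fibril-associated collagen, had 155, 145, 185 and 151 CPM in KO and 323, 216, 256 and 206 CPM in WT, without overlap (log2 fold change -0.66, SE 0.27, and -0.72, -0.73 and -0.80 in the reduced fits). Postn, periostin, had 1119.7, 454, 1211 and 803 CPM in KO and 1794, 814, 2133 and 1178 CPM in WT (log2 fold change -0.72, SE 0.35, and -0.93, -0.90 and -1.11 in the reduced fits). Over 10 fibroblast markers the summed level ran from 127 to 240 CPM in KO and from 98.4 to 269 CPM in WT. The 269 CPM came from WT replicate 2, and the other WT libraries, at 98.4 to 104 CPM, lay below every KO library. Of 6 fibroblast markers tested, 4 were above 0 with a median log2 fold change of 0.31, or 0.90, 0.45 and 1.29 in the reduced fits. Without WT replicate 2, and without both libraries, all 6 were above 0, against 53.8% and 51.9% of all genes. WT replicate 2 had the highest summed level in WT and KO replicate 3 the lowest in KO, so the larger medians without them add no support. The fibroblast gene Dcn had 154, 99.3, 123 and 137 CPM in KO and 57.8, 173, 73.3 and 71.8 CPM in WT, and the part of fibroblast RNA in these matrix levels was not tested. The median of 22 basement membrane genes was 0.05, or -0.09, 0.24 and 0.09 in the reduced fits.

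In the hyaluronan system the synthase and a binding proteoglycan lay in opposite directions. Has2 was lower in KO, as given above, whereas Vcan, the hyaluronan-binding proteoglycan versican, had 2019, 1764, 324 and 1509 CPM in KO and 712, 951, 260.2 and 839 CPM in WT. KO replicates 1, 2 and 4 stood above all WT libraries and KO replicate 3 did not, and the log2 fold change of 1.02 (SE 0.47) was 1.22, 1.37 and 1.54 (SE 0.35) in the reduced fits. WT replicate 2 was the highest WT library and KO replicate 3 the lowest KO library. Leaving them out raises the Vcan value by construction, so the larger values add no support. Cd44, the hyaluronan receptor, had 177, 202, 128.9 and 244 CPM in KO and 168, 134, 278 and 323 CPM in WT, overlapping (log2 fold change -0.26, SE 0.33, and -0.45, -0.12 and -0.31 in the reduced fits). Over the 10 tested genes of this list 1 was higher (1.87% of all genes) and 1 was lower (1.51%) at an unadjusted edgeR p under 0.05.

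The insulin-like growth factor binding proteins were split too. Beside Igfbp3, Igfbp5 had 2408, 3646, 805 and 1564 CPM in KO and 3601, 5193, 3474 and 4070.1 CPM in WT. Only KO replicate 2 reached into the WT range, and the log2 fold change of -0.96 (SE 0.36) was -0.82, -0.68 and -0.55 in the reduced fits. Igfbp4 had 69.3, 104, 9.49 and 68.6 CPM in KO and 33.1, 28.8, 16.3 and 19.1 CPM in WT, higher in every KO library but replicate 3 (log2 fold change 1.37, SE 0.59, and 1.46, 1.74 and 1.81 in the reduced fits). Igf1r, the receptor, had 90.0, 77.8, 95.9 and 110.2 CPM in KO and 121, 105, 76.4 and 82.9 CPM in WT (log2 fold change -0.04, SE 0.31, and 0.00, -0.04 and -0.02 in the reduced fits). Of the 15 tested genes of the list 8 were above 0, with a median of 0.02.

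Wnt pathway genes, which support basal stem cells, had a median log2 fold change of 0.35 over 31 tested, of which 21 were above 0; the median was 0.15, 0.22 and 0.12 in the reduced fits. At an unadjusted edgeR p under 0.05, 2 were higher (1.87% of all genes) and 1 was lower (1.51%). Fzd2, a Wnt receptor, had 10.8, 42.3, 13.7 and 13.8 CPM in KO and 4.23, 1.71, 0.604 and 8.28 CPM in WT, without overlap (log2 fold change 2.42, SE 0.95, and 2.18, 2.56 and 2.32 in the reduced fits). Lgr5, the R-spondin receptor and a stem cell marker, had 251, 192, 149.7 and 122 CPM in KO and 137, 75.1, 124 and 89.1 CPM in WT, where the lowest KO library lay below the highest WT libraries (log2 fold change 0.75, SE 0.32, and 0.61, 0.83 and 0.68 in the reduced fits). Tcf7l2, a transcription factor of the pathway, had 127, 168, 122 and 138 CPM in KO and 198, 318, 172 and 184 CPM in WT, without overlap (log2 fold change -0.65, SE 0.29, and -0.41, -0.58 and -0.36 in the reduced fits). Of 11 stem cell associated genes, 9 were above 0 with a median of 0.48, or 0.26 without both libraries. Among them Nrp1, a receptor for semaphorins and vascular endothelial growth factor, had 4.01, 19.2, 37.9 and 29.5 CPM in KO and 1.41, 11.9, 7.24 and 1.43 CPM in WT (log2 fold change 2.04, SE 0.94, and 2.77, 1.70 and 2.41 in the reduced fits).

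Notch targets were split. Hey1, a Notch-induced repressor, had 27.6, 13.0, 2.81 and 19.5 CPM in KO and 65.4, 124, 24.1 and 21.3 CPM in WT. It is also a luminal progenitor marker and was highest in WT replicate 2, and its log2 fold change of -1.89 (SE 0.70) was -1.23 without that library and -0.89 without both. Hes1, another Notch-induced repressor, had 22.1, 29.3, 33.7 and 40.2 CPM in KO and 13.4, 20.3, 10.9 and 16.2 CPM in WT, without overlap (log2 fold change 1.04, SE 0.56, and 1.21, 1.02 and 1.17 in the reduced fits). Among 30 axon guidance genes 23 were above 0, with a median of 0.26. They include Sema4d, a semaphorin, with 7.41, 7.18, 1.05 and 2.86 CPM in KO and 33.8, 37.7, 8.15 and 9.39 CPM in WT, which did not overlap (log2 fold change -2.25, SE 0.89, and -1.87, -1.91 and -1.55 in the reduced fits). Its WT means on the scaling of 24 libraries were 21.9 CPM in basal cells, 52.6 in LP and 59.3 in ML. The part of luminal RNA in the Sema4d difference was not tested. Sema3e had 3.40, 3.88, 8.78 and 21.4 CPM in KO and 0, 0.426, 1.81 and 2.07 CPM in WT, also without overlap (log2 fold change 3.11, SE 1.31, and 2.85, 3.14 and 2.88 in the reduced fits). Sema3e passed the filter on low counts mainly through KO libraries, so these values are a description.

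Transcripts of luminal progenitors and of milk followed WT replicate 2, and those of mature luminal cells did not change side with it. Of 14 tested luminal progenitor markers 3 were above 0 with a median log2 fold change of -1.17, while without that library 8 of 13 were above 0 (53.8% of all genes were) with a median of 0.20, and without both libraries the median was 0.33. Of 12 mature luminal markers 3 were above 0 with a median of -0.48, and the median was -0.20, -0.67 and -0.30 in the reduced fits, so it stayed below 0 without WT replicate 2. The 9 tested milk genes had a median of -1.44 with all libraries and 0.62 without WT replicate 2. Btn1a1, a protein of the milk fat globule, was at 1444 CPM in that library and at 29.8 to 137 CPM in the other WT libraries. KO replicate 2 also carried milk RNA, 4282 CPM over the list, against 294 to 956 CPM in the other KO libraries and 13194 to 107513 CPM in WT luminal progenitors, where replicate 2 was again the highest and the other 3 held at most 19812 CPM. No luminal marker difference between KO and WT basal cells is therefore given as a result of the genotype here; the milk genes Csn1s2b and Olah were at 0 in all 8 libraries.

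Whether the KO effect in basal cells differed from that in luminal cells was asked of all 24 libraries in 1 fit. No gene of 14082 passed edgeR for the difference from luminal progenitors, with 383 above 0 (2.72%) and 597 below (4.24%) at an unadjusted p under 0.05, or for that from mature luminal cells, with 365 (2.59%) and 605 (4.3%). DESeq2 called 29 and 30 genes. For the KO effect in basal cells itself, edgeR called 4 genes above 0 (0.0284%) and 9 below (0.0639%) in this fit, where all 24 libraries share 1 estimate of the spread; Id3 was among the 4. Id3 had a log2 fold change of 2.63 (SE 0.44) in basal cells, 1.15 in LP and -0.64 in ML in this fit. Its difference was 3.27 from ML (edgeR adjusted p = 0.124) and 1.48 from LP (edgeR adjusted p = 0.614). Its level ran from 51.6 to 105 CPM in KO basal libraries, from 11.6 to 15.5 CPM in KO ML and from 16.5 to 33.6 CPM in WT ML. Tcf4 had 1.11 in basal cells, 0.49 in LP and -0.16 in ML, and Zbed3 had 2.14, 0.13 and -0.62. The log2 fold change of mt-Co3 was 1.07 in basal cells and 1.08 in LP, with a difference of -0.01 and an edgeR adjusted p of 1, while it was 0.00 in ML. Esr1, the estrogen receptor, had 4.01, 5.82, 3.51 and 17.9 CPM in KO basal cells and 15.8, 43.5, 32.9 and 12.4 CPM in WT basal cells, with KO replicate 4 inside the WT range. Its log2 fold change was -1.72 in basal cells and 0.95 in LP, a difference of -2.67 (edgeR adjusted p = 0.258). Esr1 is also a mature luminal marker, with WT means of 25.5 CPM in basal cells, 26.6 in LP and 228 in ML on the scaling of 24 libraries. Among WT basal libraries it was highest in replicate 2, which carries the luminal RNA. The part of luminal RNA in the Esr1 difference was not tested. Igfbp3 and Has2 stood at no more than 8.29 and 8.49 CPM in any luminal library, so their fitted luminal values rest on few reads.

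**Figure D5:**
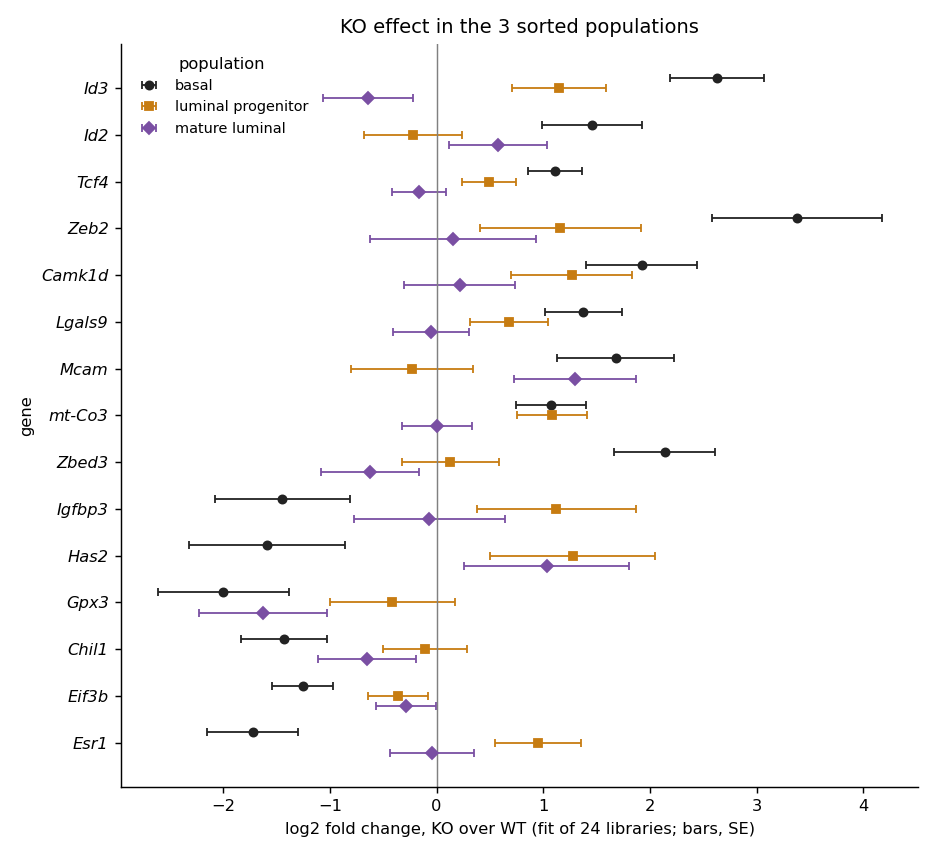
Log2 fold change, KO over WT, of 15 genes in basal cells, LP and ML cells from 1 edgeR fit of 24 libraries; bars are SE. Id3 lies at 2.63 in basal cells, 1.15 in LP and -0.64 in ML, mt-Co3 lies at 1.07 in basal cells and 1.08 in LP, and Igfbp3, Has2 and Esr1 are below 0 in basal cells and above 0 in LP.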

How the data were processed

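Per the labels' protocols, cDNA was amplified with the NuGEN Ovation V2 system. Per the file header, the authors' table holds an expected count for each gene in each library, and its values are unscaled. Cutadapt, STAR, RSEM and the mm10 build are named in the submitters' processing notes, whose versions and parameters the sources used here do not state. Expected counts were rounded to whole numbers; they can split reads of near-identical genes, whose values are uncertain. Of 24007 genes, 25 had no symbol, and 23780 identifiers (99.1%) matched GENCODE.

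Tools were edgeR 4.0.16, DESeq2 1.42.0 and limma 3.58.1 in R 4.3.3. Genes were tested with edgeR's two-sided quasi-likelihood F-test, with TMM scaling, the default filter on low counts, robust dispersion and Benjamini-Hochberg adjustment over all genes tested at 0.05, with no block. KO and WT basal libraries were fitted alone; differences between populations used all 24 libraries. The scripts were tested on simulated data. An SE is the log2 fold change divided by the square root of F. The lists, 44 with 742 symbols of which 737 matched, got no test. The members and lists were chosen with earlier results of these data known. No pair of libraries of a group was within counting noise.

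Named genes were Id4, not counted again below; the tested ID, E protein and EMT genes; the 12 smallest p in each direction among genes with a symbol that is not a predicted gene and a mean of at least 5 CPM in the higher group; genes called by DESeq2 or voom; the 6 smallest p in each direction without WT replicate 2 and KO replicate 3; the 2 smallest p of each list; Krt5, Krt14 and Acta2; and the 4 smallest p in each direction of the differences between populations. Ccna2, Cd44, Col12a1, Egr1, Fn1, Hsph1, Igf1r, Igfbp4, Myocd, Pcna, Postn, Rgs5, Rrm2, Sema3e, Spint1, Tcf7l2, Top2a, Trp63, Tyms and the genes at 0 fall outside this rule and were chosen after their values were seen. Alternatives were other scaling, no filter, DESeq2, voom with sample weights, the fit of 24 libraries, a replicate block, each library left out and both doubtful libraries left out. Another pseudocount, 2 CPM in place of 0.5, was tried for Id4. Results of a few genes are not reported here.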

Additional observations from a re-analysis of the deposited data

Results flagged for a closer look

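In each group of 4 libraries, the highest or lowest value of a named gene was set apart where its gap to the nearest other library relative to the group's range exceeded Dixon's critical value for 4 samples. For normally distributed values chance sets apart about 1 in 20 such groups. Here the values were CPM without logs, and many genes were chosen on these same data, so that rate is no yardstick. Of 220 groups 23 were set apart, 5 of them at KO replicate 3 and 10 at WT replicate 2. No explanation was weighed for any of them.

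The transcription factor genes Zeb1, Zeb2 and Tead1 stood far above the other KO libraries in KO replicate 3. Zeb1 was at 116 CPM (others 3.09 to 16.5 CPM), Zeb2 at 243 CPM (others 19.6 to 45.0 CPM) and Tead1, a partner of YAP, at 1365 CPM (others 558 to 643 CPM). The same library stood apart for Cdh5, an endothelial cadherin, at 145 CPM, and for Clca3a1 at 141 CPM (others 44.0 to 50.7). KO replicate 2 stood apart for Fzd2 at 42.3 CPM, Inhbb, an activin subunit, at 27.7 CPM, the cytokine Lif at 20.8 CPM and the fibroblast gene Dpt at 27.5 CPM. KO replicate 4 stood apart for Esr1 at 17.9 CPM, against 3.51 to 5.82 CPM in the other KO libraries.

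WT replicate 2 stood apart for genes of milk and of luminal progenitors: Btn1a1 at 1444 CPM, Xdh at 151 CPM (others 16.2 to 23.5) and Tnfaip2 at 24.7 CPM (others 1.69 to 2.72). It also stood apart for Vipr1 at 66.3 CPM, Ero1lb at 139 CPM, Nol4l at 253 CPM, Inhbb at 258 CPM, the focal adhesion kinase gene Ptk2 at 111 CPM and the fibroblast gene Dcn at 173 CPM. Ftsj3 was low there, at 6.18 CPM against 67.0 to 68.7 CPM in the other WT libraries. WT replicate 1 stood apart for Cd36 at 11.1 CPM, WT replicate 3 for Dpt at 9.66 CPM and WT replicate 4 for Zeb2 at 13.2 CPM, which is still below every KO library.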

How the results depend on the processing

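The log2 difference of Id4 was -3.05 with a replicate block too, where the exact permutation p over same-numbered pairs was 0.125, the smallest that 16 assignments allow. Leaving out 1 library in turn gave -3.57 to -2.54 (exact permutation p 0.0286 to 0.0857, WT replicates 1 and 4 giving the highest), and leaving out both doubtful libraries gave -3.98 (exact permutation p = 0.1). These smaller designs allow few assignments, and the direction was the same in each.

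The count of genes passing in KO against WT was 0 with edgeR in the fit reported, and also with RLE size factors, with library totals alone, with the replicate block (393 genes at an unadjusted p under 0.05) and without each library in turn (317 to 538). DESeq2 gave 7, voom 1, a fit of all 24 libraries 13 (4 higher, 9 lower) and edgeR without a filter on low counts 30 (22 higher, 8 lower). The cause of these differences was not tested. The difference of the KO effect from LP gave 0 genes with edgeR, 29 with DESeq2, 2 without the filter, 2 without both doubtful libraries and 0 to 13 when 1 library was left out; without KO basal replicate 1 it gave 13, without WT basal replicate 2 it gave 2, and without KO basal replicate 4 or WT basal replicate 3 it gave 1, all below 0. That from ML gave 0 with edgeR, 30 with DESeq2 and 0 to 3 when 1 library was left out (3 without KO basal replicate 1, 1 without WT basal replicate 3).

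The numbers of the libraries did not pair them by the rule used: correlations of same-numbered deviations from the group means were 0.157, 0.128, 0.141 and 0.065. Each KO library correlated best with the WT library of its own number, which is a hint of pairing. The sample titles give each number to 1 library of every group and do not say what those libraries share. Summed milk RNA was highest in replicate 2 of every group, including 32775 CPM in KO LP, 3653 CPM in KO ML and 2618 CPM in WT ML. The block changed no other call. It moved the median of all genes to -0.07.

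Log2 fold changes of some named genes changed sign, each with an adjusted p of at least 0.967 there. Leaving out 1 library in turn gave -0.147 to 0.371 for Tcf12, -0.056 to 0.277 for Krt14, -1.658 to 0.34 for Xdh, -2.418 to 0.616 for Btn1a1, -0.446 to 2.573 for Cdh5, -1.28 to 2.39 for Dpt, -3.289 to -0.089 for Inhbb, 0.067 to 1.997 for Vwf and 0.174 to 1.383 for Fabp4. Tcf12 was below 0 without KO replicate 1 or WT replicate 2, Krt14 likewise, Xdh and Btn1a1 were above 0 without WT replicate 2, Cdh5 was below 0 without KO replicate 3 and Dpt without KO replicate 2. Without both doubtful libraries the values were 0.042 for Inhbb, 0.923 for Btn1a1, -0.425 for Cdh5, -0.189 for Vwf, -0.202 for Fabp4 and -0.035 for Krt14. Voom gave -0.073 for Stat2, 0.128 for Btn1a1 and -0.092 for Mbp (leave-one-out 0.464 to 1.597 for Stat2 and 0.267 to 0.768 for Mbp), and the replicate block gave -0.856 for Dpt. Depth limits the low genes: 3 counts are up to 0.968 CPM, so fold changes of genes near 0 in a group are not firm.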

Other observations

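Genes of the dissociation response were not alike. Of 22 immediate early genes 19 had a log2 fold change above 0 with a median of 0.24, or 0.45, 0.19 and 0.32 without WT replicate 2, KO replicate 3 and both; none was at an unadjusted edgeR p under 0.05 with all libraries and 2 were higher without both (3.19% of all genes). Egr1 had 6825, 5324, 6058 and 5317 CPM in KO and 6275, 7839, 2475 and 2646 CPM in WT, so that WT replicates 1 and 2 lay with the KO libraries and WT replicates 3 and 4 below them. Of 17 heat shock genes 8 were above 0 with a median of -0.0035, while without both libraries 3 were above 0 with a median of -0.43 and 4 were lower at an unadjusted edgeR p under 0.05 (1.93% of all genes). Hsph1, a chaperone, had 88.1, 91.9, 336 and 67.8 CPM in KO and 89.2, 30.3, 230.0 and 257 CPM in WT, with KO replicate 3 and WT replicate 2 at the extremes of their groups. Of 19 genes of fatty acid oxidation 3 were above 0 with a median of -0.30, or -0.10, -0.37 and -0.22 without WT replicate 2, KO replicate 3 and both, yet the fatty acid carrier Cd36, with 11.6, 10.1, 69.9 and 27.1 CPM in KO and 11.1, 5.12, 4.83 and 3.98 CPM in WT, and the nuclear receptor gene Ppard, with 26.5, 90.6, 75.5 and 50.2 CPM in KO and 17.1, 9.38, 46.2 and 30.2 CPM in WT, were both higher at an unadjusted edgeR p under 0.05 (1.87% of all genes). Without WT replicate 2, 1 gene of the list was higher at that limit (228 of all 11838 genes). Without KO replicate 3, and without both libraries, 0 were.

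Of 5 further genes, from lists of proteases, signals, lipid synthesis and junctions, only Reck separated the groups. Reck, an inhibitor of matrix metalloproteinases, had 37.3, 50.8, 75.2 and 72.4 CPM in KO and 26.1, 27.9, 33.5 and 24.5 CPM in WT, without overlap (log2 fold change 1.07, SE 0.43; 0.93 without both libraries). Csf1, the macrophage growth factor, had 83.0, 50.04, 115 and 99.98 CPM in KO and 105, 141, 165 and 219 CPM in WT, overlapping only at KO replicate 3 and WT replicate 1 (log2 fold change -0.86, SE 0.34; -1.08 without both). Egfr, the epidermal growth factor receptor, had 220.4, 119, 232 and 145 CPM in KO and 252, 239, 283 and 225 CPM in WT (log2 fold change -0.48, SE 0.29; -0.66 without both). Scd2, a fatty acid desaturase, had 106, 161, 31.6 and 165 CPM in KO and 62.2, 75.7, 35.9 and 39.2 CPM in WT (log2 fold change 1.12, SE 0.47, and 1.65 without both). WT replicate 2 was its highest WT library and KO replicate 3 its lowest KO library, so the larger value adds no support. Pkp1, a desmosomal plaque protein, had 242, 98.1, 352 and 217 CPM in KO and 95.6, 16.6, 112 and 134 CPM in WT (log2 fold change 1.34, SE 0.51; 0.70 without both).

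In the fit of 24 libraries, genes that edgeR called in basal cells included some near 0 in a group. Tec, a kinase gene, had 0.309, 0, 0 and 0 CPM in KO and 2.82, 2.13, 24.4 and 1.75 CPM in WT, and the high WT value came from replicate 3. On the scaling of 24 libraries its WT means were 7.78 CPM in basal cells, 20.5 in LP and 22.6 in ML. Ogfod2 had 1.54, 10.1, 5.62 and 23.3 CPM in KO and 0.282, 0.64, 0.906 and 0.159 CPM in WT, without overlap. Spint1, an epithelial protease inhibitor, had 11.9, 18.4, 1.05 and 6.67 CPM in KO and 20.4, 72.3, 36.2 and 49.98 CPM in WT, also without overlap. Csn1s2b and Olah (milk), Kcnj8 (pericyte), Clec3b (fibroblast), Adgre1 (immune), Adipoq, Cfd, Retn and Cidec (adipocyte) and Hba-a2 and Hbb-bs (erythroid) were at 0 in all 8 basal libraries.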
